A study of Homo sapiens with 4 samples.

Results

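The zinc finger gene clusters of human chromosome 19 were described by the regions of open chromatin that ATAC-seq listed inside them. A region was included when the summit of its peak lay in 1 of 3 intervals of the hg19 build, so position alone decided and no measured value did. Cluster A is chromosome 19, 19800000 to 24400000, beside the centromere on the short arm. Cluster B is 52300000 to 53950000 and cluster C is 56000000 to 59128983, the end of the long arm. They hold 614 of the 194551 peaks listed for vehicle and 607 of the 163735 peaks listed for GSK2879552. Chromosome 19 as a whole held 5046 and 4550 peaks, and its peaks outside the 3 intervals, 4432 and 3943, served for comparison.

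LNCaP, an androgen-sensitive prostate cancer line, was given vehicle or GSK2879552, which blocks LSD1 (KDM1A), a histone demethylase. The labels state 50 µM for 4 hours in RPMI1640 with 5% CSS, after maintenance in 10% FBS. The same text stands on all 4 samples, and only the agent label separates the groups. Each condition had 1 library, sequenced in 2 lanes that the labels call technical replicates, and 1 peak list. No replicate check and no test between conditions was therefore possible, and all intervals below are 95% intervals for counting error only.

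Most genes in these intervals are known to encode proteins with a KRAB domain followed by an array of C2H2 zinc fingers. Such a protein binds DNA through its fingers, many of them at transposable elements, and its KRAB domain recruits TRIM28 (KAP1), which brings in enzymes that place the repressive mark H3K9me3. The genes arose by repeated tandem duplication, and their own 3′ parts are known to carry H3K9me3 and HP1 proteins while their promoters are active in many cell types. LSD1 removes methyl groups from lysine 4 and, in some complexes, lysine 9 of histone H3. In the RefSeq gene table of assembly GRCh38.p14, 250 of 517 protein-coding genes with a ZNF symbol (48.4%) lay on chromosome 19. The longest row of neighbouring zinc finger genes there ran from ZNF737 to ZNF681 with 27 members, among them ZNF43, ZNF208 and ZNF91, a repressor of retroelements, and these are genes of the short arm. Another 23 neighbours ran from ZNF772 to ZNF256 near the end of the long arm. That table is of another build than the peaks, so no peak was given a gene, and the name of the clusters could not be checked against gene positions. Further rows of zinc finger genes, such as the 20 from ZNF283 to ZNF180, lie elsewhere on chromosome 19, so the comparison regions also hold such genes.

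Peak height is given below as tags, the pile-up of sequenced tags at the summit, recovered from the deposited fold and p-value. The genome-wide background was 2.310 tags for vehicle and 2.716 tags for GSK2879552. Their ratio, 1.18, is used to scale tags for depth, so a scaled ratio of 1 means the same share of the library. Across chromosomes 1 to 22, X and Y the GSK2879552 list was shorter, with 0.842 peaks per vehicle peak, and tags at paired peaks were lower. The cluster values are to be read against that general difference.

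Cluster A was sparse in open regions, whereas clusters B and C were about as dense as other parts of the chromosome. The vehicle list held 45 peaks per Mb in cluster A, 82.4 in cluster B and 86.6 in cluster C, against 89.1 on other chromosome 19. Without the longest peak-free stretch of the chromosome, 24629176 to 27731918 (3.10 Mb), the last value was 95.01. The GSK2879552 list held 45.7, 87.3 and 80.9 peaks per Mb in clusters A, B and C, against 79.3 on other chromosome 19. Open regions covered 13.0 bp per kb in cluster A with vehicle and 12.0 bp per kb with GSK2879552. In cluster C they covered 34.2 bp per kb with vehicle, more than the 28.7 bp per kb of other chromosome 19.

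**Figure D1:**
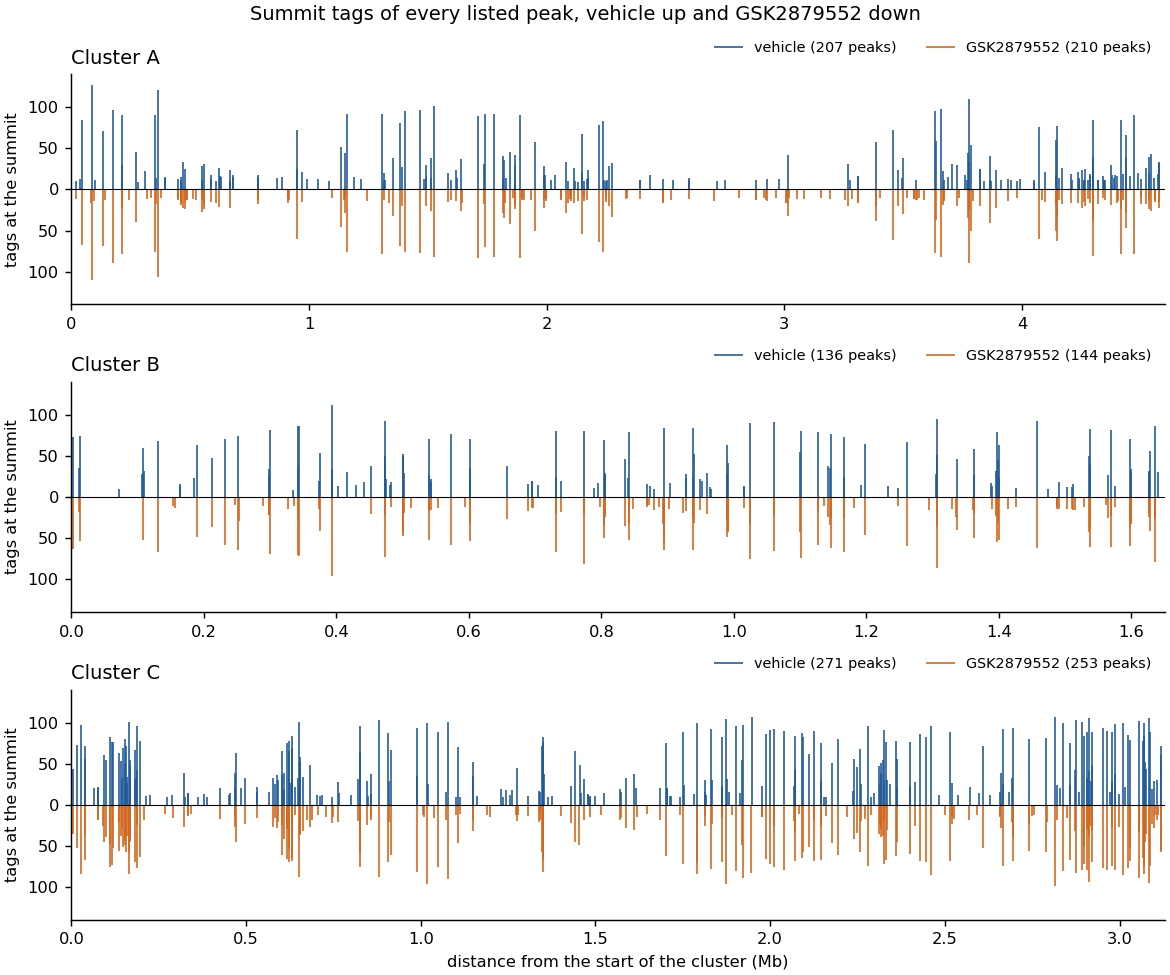
Tags at the summit of every listed peak in clusters A, B and C, by distance from the start of the cluster in Mb, with vehicle drawn upward and GSK2879552 downward. Tall peaks recur at intervals in both lists at the same places, and a stretch of 1223 kb in cluster A holds no peak of 60 tags or more.

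Very low peaks made up more of the clusters than of other chromosome 19 in both lists, and peaks of middle height made up less. Peaks of 80 tags or more made up more of the clusters in the vehicle list only. In the vehicle list 232 of 614 cluster peaks, or 37.8% (33.9 to 41.8), had 20 to 59 tags, against 54.6% (53.1 to 56.0) outside. Of the vehicle cluster peaks, 23.8% (exact Clopper-Pearson interval 20.5 to 27.3) had under 15 tags, against 10.7% (9.80 to 11.6) on other chromosome 19. Over chromosomes 1 to 22, X and Y this share was 23.7%, so the cluster value lay near that of the whole genome. At the other end, 16.4% (13.6 to 19.6) had 80 tags or more, against 10.9% (9.95 to 11.8). Peaks of 40 to 59 tags made up 9.45% (7.25 to 12.0) inside and 19.2% (18.03 to 20.4) outside. The low peaks and the tall ones did not come from the same cluster in equal measure. Peaks under 15 tags were 37.2% of cluster A, 14.0% of cluster B and 18.5% of cluster C in the vehicle list. Peaks of at least 80 tags were 11.1%, 12.5% and 22.5%, so clusters A and B lay near the 10.9% outside.

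In the GSK2879552 list 37.4% (33.5 to 41.4) of cluster peaks had 20 to 59 tags, against 56.3% (54.7 to 57.8) outside. There 25.04% (21.6 to 28.7) of cluster peaks had under 15 tags and 11.7% (9.25 to 14.5) had 40 to 59 tags, against 11.3% and 17.7% outside. Over chromosomes 1 to 22, X and Y 26.6% had under 15 tags, near the cluster value. By cluster it was 42.9% in cluster A, 21.5% in cluster B and 12.3% (8.48 to 16.9) in cluster C, which lay near the 11.3% outside. The tallest class of the GSK2879552 list inside the clusters was smaller than with vehicle, with 5.93% (4.19 to 8.12) at 80 tags or more. That was near the 6.09% (5.36 to 6.88) outside. Peaks of 60 to 79 tags were 15.5% (12.7 to 18.6) inside, against 10.9% (9.95 to 11.9) outside. When all chromosome 19 peaks of a list were ranked by −log10 p, decile 10, the strongest, took up 17.4% of vehicle cluster peaks and 15.5% of GSK2879552 cluster peaks. Deciles 5 to 8 together took up 28.5% and 28.2%, against 41.6% and 41.8% outside.

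**Figure D2:**
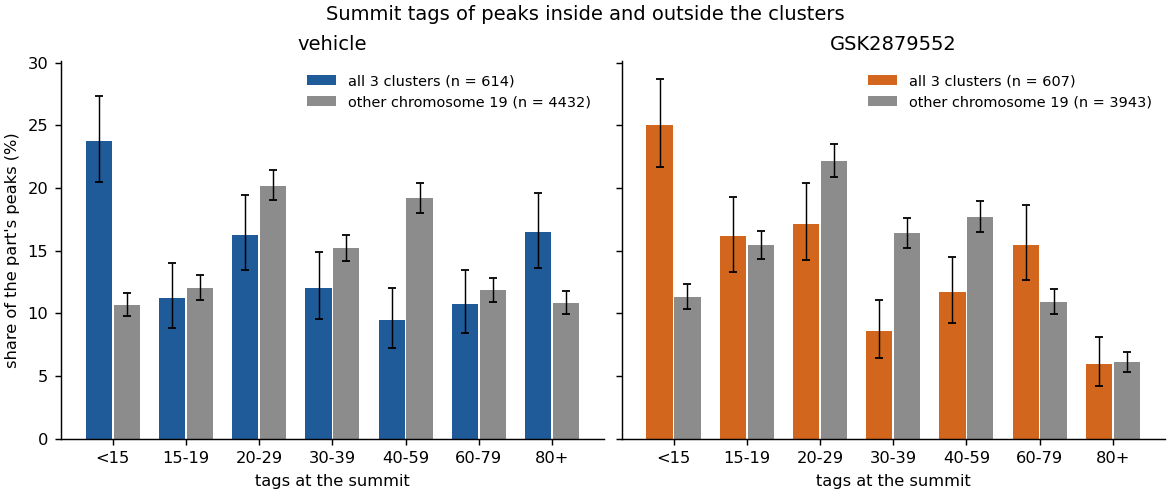
Share of peaks in each class of summit tags, in percent of the peaks of the 3 clusters (colour) or of other chromosome 19 (grey), for each list, with bars of 95% exact binomial intervals. The cluster peaks stand above the grey bars under 15 tags and below them at 40 to 59 tags in both lists.

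Tall cluster peaks were mostly wide. Of the 167 vehicle peaks with at least 60 tags in the clusters, 135 were also at least 500 bp wide, which is 80.8% (74.0 to 86.5). On other chromosome 19 this held for 647 of 1006, or 64.3% (61.3 to 67.3). By cluster it held for 30 of 32 vehicle peaks in cluster A, 29 of 38 in cluster B and 76 of 97 in cluster C. In the GSK2879552 list it held for 94 of 130 cluster peaks, or 72.3% (63.8 to 79.8), against 59.1% (55.3 to 62.9) outside. These were 29 of 29 in cluster A, 14 of 24 in cluster B and 51 of 77 in cluster C. The median width of these tall vehicle peaks was 730 bp in cluster A, 735 bp in cluster B and 722 bp in cluster C. All 167 overlapped a GSK2879552 peak, and all 130 GSK2879552 peaks of that height overlapped a vehicle peak. On other chromosome 19 all 1006 vehicle peaks and 669 of 670 GSK2879552 peaks of that height also had a partner.

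Wide openings were spaced farther apart in cluster A than in the other clusters. The median distance between neighbouring vehicle peaks of at least 500 bp was 68.6 kb in cluster A (interquartile range 39.8 to 149), 35.99 kb in cluster B (25.8 to 51.8) and 22.8 kb in cluster C (12.2 to 39.3). On other chromosome 19 it was 32.7 kb (15.7 to 62.9). In clusters A and B no such pair of neighbours was closer than 5 kb. In cluster C 6.33% of the distances were, and 5.32% elsewhere on the chromosome. Per Mb, wide vehicle openings numbered 7.83 in cluster A, 20.6 in cluster B, 25.6 in cluster C and 16.3 on other chromosome 19.

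Ranked by −log10 p, the strongest vehicle peak of cluster A, at 19886815 to 19887889, was 1075 bp wide and carried 127 tags (exact Poisson interval 106 to 151). Its partner with GSK2879552 was 973 bp wide with 110 tags. The next, 20162612 to 20163632, carried 121 tags with vehicle and 106 with GSK2879552. The third, 21324600 to 21325301, carried 102 and 82 tags. In all 3 the count was lower with GSK2879552, whose genome-wide background was the higher one.

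In cluster B the strongest vehicle peak by −log10 p, 53757742 to 53758377, carried 93 tags (75.1 to 114) against 62 with GSK2879552. The highest tag count in that cluster was 112, at a peak of lower rank. The second and the third, 53324148 to 53325115 with 90 tags and 53360193 to 53361125 with 92 tags, each covered 2 separate GSK2879552 peaks. For the second these were 456 bp and 344 bp wide with 34 and 75 tags. For the third they were 238 bp and 429 bp wide with 22 and 66 tags. One continuous opening in the vehicle list thus stood as a low and a high one in the other list.

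In cluster C the strongest vehicle peak by −log10 p, 58816234 to 58817051, carried 107 tags (87.7 to 129) and its GSK2879552 partner 99 tags. The second, 56879216 to 56880107, carried 103 and 88 tags. The third, 58125415 to 58126078, carried 90 tags with vehicle, and the taller of its 2 GSK2879552 peaks carried 69. The widest vehicle region of all 3 clusters, 56110261 to 56112035, spanned 1775 bp with 83 tags at its summit. With GSK2879552 it appeared as 2 peaks of 912 bp and 520 bp with 76 and 48 tags. Another wide one, 59055069 to 59056477 near the chromosome end, spanned 1409 bp with 102 tags and matched 3 GSK2879552 peaks, the middle one with 89 tags. The region 56165054 to 56166473, 1420 bp wide with 101 tags, met 2 GSK2879552 peaks, the taller with 84 tags. In contrast, 57350149 to 57351407 was nearly alike in both lists, at 1259 and 1261 bp with 83 and 82 tags.

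The number of listed cluster peaks was close between the conditions, with 607 GSK2879552 peaks for 614 vehicle peaks, or 0.989 per vehicle peak. On other chromosome 19 the number was 0.890. By cluster it was 1.01 in cluster A, 1.06 in cluster B and 0.934 in cluster C. The covered length was nonetheless lower with GSK2879552, at 0.841 of the vehicle length in the clusters and 0.772 elsewhere on the chromosome. Peaks of at least 60 tags numbered 0.778 per vehicle peak inside and 0.666 outside. Of peaks with −log10 q no lower than 5, a level that depends on depth, the clusters held 443 vehicle and 379 GSK2879552 peaks, a ratio of 0.856 against 0.785 outside. A like total therefore went with less covered length and fewer tall peaks.

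Part of the GSK2879552 total came from wide openings that this list held in pieces. In the clusters 410 vehicle peaks had a partner, and they met 453 GSK2879552 peaks. Of 150 vehicle peaks at least 500 bp wide, 43 overlapped 2 or 3 GSK2879552 peaks, which is 28.7% (21.6 to 36.6), against 162 of 812 on other chromosome 19, or 19.95% (17.3 to 22.9), and 25.5% over chromosomes 1 to 22, X and Y. In cluster B it was 17 of 34, or 50% (32.4 to 67.6). In cluster A it was 6 of 36, and in cluster C 20 of 80. The opposite case was rare, with 3 of 115 wide GSK2879552 peaks meeting 2 vehicle peaks. The 1285 bp vehicle region at 53193040 to 53194324 in cluster B, with 84 tags, met 3 GSK2879552 peaks of 309, 510 and 266 bp with 33, 64 and 56 tags.

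**Figure D3:**
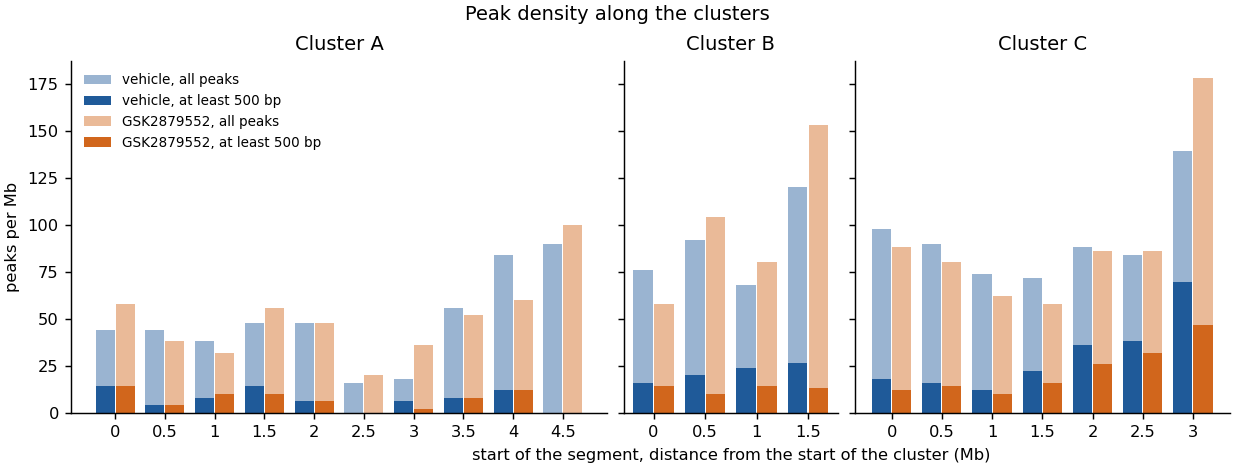
Peaks per Mb in segments of 500 kb (the last of each cluster is shorter) by distance from the start of the cluster, with all peaks in pale bars and peaks of at least 500 bp in dark bars. Cluster A is lowest at 2.5 Mb from its start, and wide peaks in cluster C are densest in its last segment.

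The remaining GSK2879552 peaks of the clusters were low, and the share without a partner was above that elsewhere on the chromosome when every listed peak was counted. Of the 607, 154 overlapped no vehicle peak, or 25.4% (21.95 to 29.03), against 17.0% (15.8 to 18.2) on other chromosome 19. Over chromosomes 1 to 22, X and Y this share was 23.5%, so the cluster value lay near the background of the whole genome. Cluster A accounted for 81 of them, 38.6% of its list, where cluster B had 22.2% and cluster C 16.2%. They had a median of 13 tags and at most 24. In the vehicle list 204 of 614 cluster peaks had no partner, or 33.2% (29.5 to 37.1), against 30.3% (28.95 to 31.7) on other chromosome 19 and 38.5% over chromosomes 1 to 22, X and Y. Those had a median of 14 tags and at most 48.

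Partners went with peak height. Every vehicle cluster peak in deciles 7 to 10 of chromosome 19 by −log10 p had a partner, as did every GSK2879552 cluster peak in deciles 6 to 10. Outside, the shares in these deciles were at least 99.3% with vehicle and at least 99.8% with GSK2879552. In the GSK2879552 list the share was lower inside in deciles 2 to 5. In decile 2, 27.2% (17.9 to 38.2) of cluster peaks had a partner, against 42.0% (36.9 to 47.2) outside. In decile 1, the weakest, it was 32.5% (22.4 to 43.9) inside and 28.0% (23.5 to 32.8) outside. In the vehicle list the share was higher inside in deciles 1, 2, 3 and 5 and lower in deciles 4 and 6. With the 10 deciles weighted alike, 79.3% of GSK2879552 cluster peaks and 82.4% of those outside had a partner, closer than the plain 74.6% and 83.0%. Among peaks whose −log10 q reached 5, 94.7% inside and 95.9% (95.1 to 96.6) outside had one. For vehicle peaks the weighted shares were 70.7% inside and 69.1% outside. In cluster A the weighted share of GSK2879552 peaks was 75.6%, and in clusters B and C it was 81.2% and 81.9%.

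**Figure D4:**
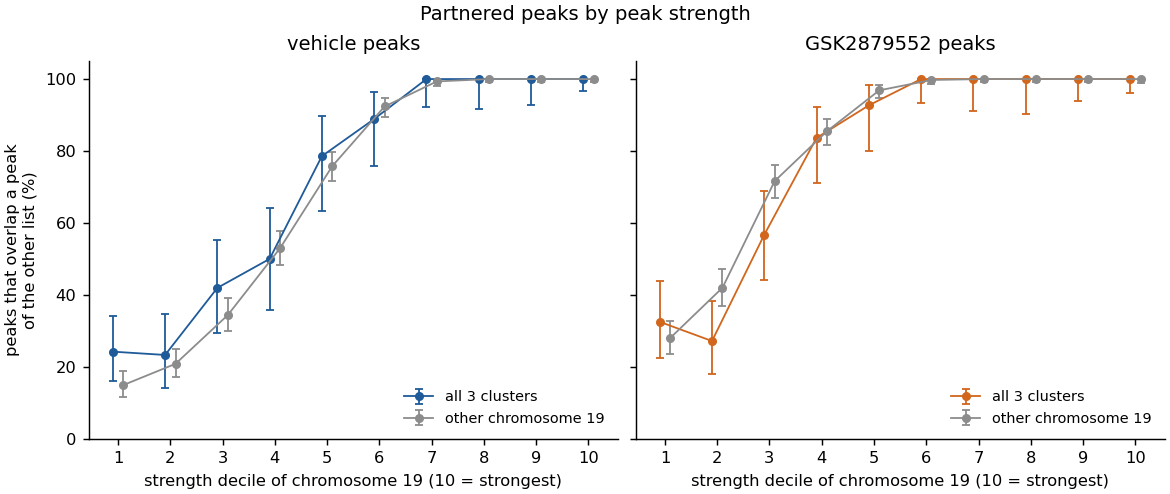
Share of peaks that overlap a peak of the other list, in percent, by decile of peak strength among all chromosome 19 peaks of the list, with 95% exact binomial intervals. The shares climb with strength for cluster peaks (colour) and other peaks (grey), and they reach 100% for cluster peaks from decile 7 with vehicle and from decile 6 with GSK2879552.

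By −log10 p, the strongest regions listed with vehicle only were modest in height. The first, 23504280 to 23504471 in cluster A, carried 31 tags (21.1 to 44.0), and the nearest GSK2879552 peak lay 21878 bp away. In cluster B, 52715302 to 52715467 carried 30 tags and lay 21506 bp from any GSK2879552 peak. The others were 21972661 to 21972837 with 24 tags in cluster A, and 52484283 to 52484505 and 52409093 to 52409227 with 23 and 32 tags in cluster B. None of these 5 was wider than 223 bp.

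By the same ranking, the strongest regions listed with GSK2879552 only were lower still, at 16 to 18 tags. The first, 24300428 to 24300591, carried 18 tags (10.7 to 28.4) with a vehicle peak 222 bp away. The next, also of cluster A, 20713268 to 20713407 and 21135522 to 21135984, carried 17 tags each and lay 26618 and 15916 bp from a vehicle peak. Cluster B had 53815428 to 53815586 and cluster C had 56289827 to 56289944, with 16 tags each. At such heights the interval of each count spans a wide range, and the tags of the vehicle library at these positions are not given by its list.

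Where both lists held a peak, summit tags in the clusters were lower with GSK2879552 by about the same ratio as outside. There were 353 cluster pairs in which each peak overlapped exactly 1 of the other list, and their medians were 41 tags with vehicle and 32 tags with GSK2879552. On the scaled log2 scale GSK2879552 over vehicle had a median of -0.52 (interquartile range -0.69 to -0.36), against -0.53 (-0.69 to -0.38) for 2863 pairs on other chromosome 19. The sums over pairs were 14451 and 17569 tags, whose scaled ratio was 0.6996 (0.684 to 0.715 by an exact binomial interval), and 0.699 (0.693 to 0.704) outside. The medians of classes of summed tags, averaged with the weights of the classes in the clusters, gave -0.50 inside and -0.50 outside. Over the 110134 pairs of chromosomes 1 to 22, X and Y the plain median was -0.56 and the summed scaled ratio 0.683 (0.682 to 0.684). With 1 library per condition, a difference of the cells cannot be told apart from a difference between libraries. Nor can fewer cells with a region open be told apart from a region less open in each cell in a bulk library.

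The 3 clusters differed little among themselves. The median log2 ratio was -0.49 in cluster A (110 pairs), -0.62 in cluster B (75 pairs) and -0.51 in cluster C (168 pairs). The summed ratios were 0.710 (0.681 to 0.741), 0.677 (0.643 to 0.712) and 0.703 (0.682 to 0.724), with overlapping intervals. Among tall pairs, those with at least 60 vehicle tags, they were 0.721 (0.681 to 0.764), 0.684 (0.637 to 0.735) and 0.708 (0.683 to 0.734). Pairs of at least 500 bp with vehicle had 0.707 (0.686 to 0.729) in the clusters and 0.715 (0.706 to 0.725) outside.

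Before any scaling, 301 of the 353 cluster pairs had fewer tags with GSK2879552, or 85.3%, where 83.3% of all pairs of chromosomes 1 to 22, X and Y did. After scaling, 22 cluster pairs, or 6.23%, had a ratio above 1, against 5.83% of all pairs and 3.53% of those on other chromosome 19. A log2 ratio below -1 was found in 12, or 3.40%, against 7.1% of all pairs and 3.11% on other chromosome 19. Of the 22 pairs with a ratio above 1, 20 had under 40 tags summed over the lists. On other chromosome 19 this held for 59 of 101. A pair needs a listed peak in both lists, and none in the clusters had under 9 vehicle or 10 GSK2879552 tags. This limits how low the ratio of a low pair can be. None of the 209 cluster pairs whose summed tags reached 60 had a ratio above 1. Such pairs were rare on other chromosome 19 too. There they were 10 of 763 with 60 to under 90 summed tags, 1 of 478 with 90 to under 120 and 0 of 695 with more.

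**Figure D5:**
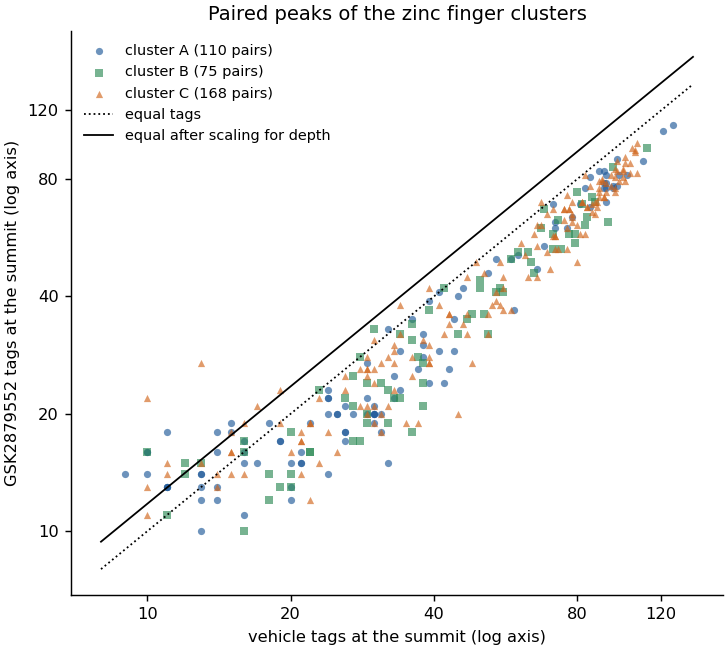
Summit tags of the 353 paired cluster peaks, vehicle across and GSK2879552 up, both on log axes, with a dotted line at equal tags and a solid line at equal tags after scaling for depth. Of the 129 pairs with at least 60 vehicle tags, 128 lie below both lines and 1 lies between them, and 20 of the 22 pairs above the solid line have under 40 summed tags.

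Among these 209 pairs the lowest ratio was at 57276570 to 57276979 in cluster C, with 45 vehicle and 20 GSK2879552 tags and a scaled ratio of 0.378 (0.211 to 0.653). It was followed by 56683330 to 56683515 in cluster C, with 48 and 27 tags (0.478, 0.287 to 0.782), and 21665608 to 21666063 in cluster A, with 42 and 24 tags (0.486, 0.282 to 0.821). The region 24342565 to 24342788, at the centromeric edge of cluster A, had 43 and 26 tags, a ratio of 0.514. The fifth, 56151929 to 56152835 in cluster C, had 80 and 49 tags, a ratio of 0.521 (0.357 to 0.753). Of these 5, the interval of the first alone lay below 0.6996, the summed ratio of the clusters.

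The highest ratio was at 56159280 to 56159685 in cluster C, with 34 vehicle and 38 GSK2879552 tags and a scaled ratio of 0.951 (0.583 to 1.56). Next came 53898575 to 53899036 in cluster B, with 30 and 33 tags (0.936), and 56608779 to 56609071 in cluster C, with 39 and 42 tags (0.916). Then came 56181775 to 56181939, with 67 and 70 tags and a ratio of 0.889 (0.627 to 1.26), and 58335108 to 58335324, with 30 and 31 tags (0.879). All 5 carried slightly more GSK2879552 tags before scaling, and all 5 intervals include 0.6996.

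Summits lay at the same places in both lists, and most regions were narrower with GSK2879552. In 284 of the 353 cluster pairs, or 80.5%, the summits of the lists lay within 50 bp, with a median distance of 16 bp, as outside (83.0% and 16 bp). The GSK2879552 peak was the narrower one in 276 pairs, or 78.2%, with a median width of 0.879 of the vehicle width, against 0.843 outside. Wide pairs kept more, with a median of 0.920 in the clusters and 0.886 outside.

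The local background, the caller's tag density in the surroundings of a peak, differed more between conditions in the clusters than outside. Tags of the peak itself can count in it. Among 293 cluster pairs above the genome-wide level in both lists, the median scaled ratio of local background was 0.823 (log2 -0.28, interquartile range -0.40 to -0.16). On other chromosome 19 it was 0.883 (log2 -0.18, -0.32 to -0.02) over 2600 pairs, and 0.892 over chromosomes 1 to 22, X and Y. By cluster it was 0.845, 0.811 and 0.817. Cluster A stood on the lowest surroundings, as 44.0% of its vehicle peaks and 41.9% of its GSK2879552 peaks were at the genome-wide background. In cluster B these shares were 10.3% and 11.1%, in cluster C 9.23% and 8.70%, and on other chromosome 19 9.61% and 9.51%. Over chromosomes 1 to 22, X and Y they were 40.3% and 38.4%, so cluster A lay near the whole genome. Low peaks and low surroundings thus went together in cluster A, and the part of either in the other was not tested.

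Along cluster A, a long stretch without any tall opening lay between 22035077 and 23257791. It ran for 1223 kb between neighbouring vehicle peaks of at least 60 tags and was singled out after its values were seen. It held 23 vehicle and 35 GSK2879552 peaks, with a median of 13 tags in both lists and highest values of 58 and 38 tags. Of these, 11 vehicle and 22 GSK2879552 peaks had no partner. In cluster A as a whole 40.1% of vehicle and 38.6% of GSK2879552 peaks had none. Of the cluster A peaks under 15 tags, only 28.6% with vehicle and 24.4% with GSK2879552 had a partner. The longest stretch of any cluster with no peak in either list lay inside the 1223 kb, from 22398757 to 22504883 (106 kb). The second, of nearly the same length, was 20479080 to 20585193, and the third was 20587104 to 20665690 (78.6 kb), both in cluster A. In clusters B and C the longest such stretches were 58.4 kb and 72.0 kb.

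Other parts of the clusters were crowded. In windows of 100 kb, ranked by vehicle peaks, the most were found 0.1 Mb from the start of cluster C, with 20 vehicle and 22 GSK2879552 peaks, and 0.6 Mb from it, with 18 in each list. The fullest window of cluster B, 0.9 Mb from its start, held 14 and 12 peaks, and the one with the most GSK2879552 peaks, 1.5 Mb from its start and chosen after its values were seen, held 12 and 17. The fullest windows of cluster A, next to each other near the centromere, held 13 vehicle and 8 GSK2879552 peaks and 12 vehicle and 5 GSK2879552 peaks. One window of cluster A, 2.6 Mb from its start, held no peak in either list. The window with the fewest vehicle peaks held 3 of each list in cluster B, and 2 vehicle and 6 GSK2879552 peaks in cluster C.

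GSK2879552 peaks outnumbered vehicle peaks in 19 of 46 windows of cluster A, 8 of 17 of cluster B and 9 of 32 of cluster C, and vehicle peaks were more in 16, 7 and 15. Tags did not follow the counts of peaks. In segments of 500 kb the scaled ratio of summed tags at pairs lay between 0.524 and 0.873 in cluster A, between 0.665 and 0.724 in cluster B and between 0.685 and 0.731 in cluster C. Both extremes of cluster A rested on few pairs. The value of 0.873 (0.544 to 1.40) came from 3 pairs at 2.5 Mb from its start, and that of 0.524 (0.417 to 0.657) from 7 pairs in its last, shorter segment. All segments had fewer tags with GSK2879552 after scaling, also those with more GSK2879552 peaks.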

How the data were processed

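Open chromatin was measured by ATAC-seq in LNCaP cells, with 2 lanes and 1 deposited peak list per condition. Per the submitters' processing notes the tools were MACS2 2.1.2, BWA 0.7.2 and SAMtools 0.1.18, listed without their roles, and the build was hg19 (GRCh37). The sources used here do not say how duplicates, reads matching several near-identical zinc finger genes or the transposase offset were handled. Each list deposited by the authors gives a score, a fold (ratio to background), a −log10 p, a −log10 q and a summit offset. The deposited −log10 values and folds rank peaks within their own list. Deposited positions were turned into 1-based coordinates.

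Tags at the summit were recovered from fold and −log10 p, taking p as a Poisson tail above the tags seen, while the fold adds 1 to tags and background. A whole number matched within 0.001 for 100% of rows of both lists. Recovery and overlaps were tested on simulated data. No summit exceeded 199 tags, against 200 that 1 tag per position and strand would allow. Library totals are not given. Peaks were partnered at 1 bp of overlap, and pairs overlap exactly 1 peak each. Binomial intervals are exact, and neighbouring peaks share tags.

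The clusters, the approach and the lists were chosen with earlier results of these data known. Regions named are the 3 strongest vehicle peaks per cluster by −log10 p, the 5 widest, the 5 strongest in 1 list only per direction, the 5 lowest and highest ratios among pairs of at least 60 tags, the 3 longest peak-free stretches and the fullest and emptiest windows of 100 kb. Python 3.11.15, NumPy 2.4.6, pandas 2.3.3, SciPy 1.17.1 and Matplotlib 3.10.9 were used. Gene names, cell type markers and sequences of regions were not analysed here, for want of an annotation and genome of hg19.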

Additional observations from a re-analysis of the deposited data

Results flagged for a closer look

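One result outside the compared regions was flagged. On the contig chr19_gl000208_random, which belongs to chromosome 19 by its name but has no position on it, the GSK2879552 list held 23 peaks against 21 in the vehicle list. It stood out because the count was above that of the vehicle control, while other chromosome 19 had fewer GSK2879552 than vehicle peaks. Its 15 pairs had a median scaled log2 ratio of -0.09, from -0.52 to 0.13, and 11 of them were below 0. With 1 library per condition the difference was not tested.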

How the results depend on the processing

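No paired analysis was possible because each condition had 1 library, whose lanes are technical replicates, and no replicate could be left out. The share of vehicle cluster peaks with a partner, 66.8%, was 55.4% under a reciprocal overlap of 50%, 74.7% for peaks whose −log10 q reached 5, and 76.2% after the lists were made equally long. On other chromosome 19 it was 69.7%, and 61.7%, 72.2% and 77.4% under these. The vehicle share was thus higher inside only where −log10 q reached 5. The share of GSK2879552 cluster peaks, 74.6%, was 56.0%, 94.7% and 70.7% under the same settings, and 68.2% with summits within 250 bp. On other chromosome 19 it was 83.0%, and 69.4%, 95.9% and 81.0% under the first 3 and 78.4% under the last. The gap of the GSK2879552 share to the clusters was thus narrowest where −log10 q reached 5. Equal length, which shortens the vehicle list alone, turned the order of the vehicle and GSK2879552 shares in the clusters but not on other chromosome 19. The number of GSK2879552 cluster peaks, 607, was 379 where −log10 q reached 5, and the number per vehicle peak, 0.989, was then 0.856. Bounds drawn in or widened by 200 kb and assignment by overlap kept that number between 0.975 and 0.999. The median log2 ratio, -0.52, was -0.28 with no scaling, -0.57 after correction for a limit of 1 tag per position and strand, and -0.55 less the background. It was below 0 in all 9 alternatives run, leaving out each cluster among them. Its difference from other chromosome 19 was 0.014 and lay between 0.0037 and 0.034. Except where the construction shows it, the cause was not tested. No peak calling at a second depth was at hand, so the limits set by depth were not tested.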
